A study of Mus musculus with 4 samples.

Results

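The 10 genes of the Bcl2 family, Bcl2, Bcl2l1, Bcl2a1b, Mcl1, Bax, Bak1, Bid, Bcl2l11, Bbc3 and Pmaip1, were read by symbol in sorted mouse mammary tumor cells titled wild-type or knockout for Lsd1. All 10 had a row among the 24043 rows of the expression table. Per the labels the cells came from female MMTV-PyMT mice, in which the mouse mammary tumor virus promoter drives the polyoma middle T oncogene in mammary epithelium. The mice also carried R26Y, a Rosa26 allele with a stop cassette before yellow fluorescent protein (YFP). An adenovirus with Cre under the Krt8 promoter (Ad-K8-Cre) was injected into the ducts, and YFP+ cells were sorted 2 to 3 months later, so that virus, reporter and oncogene were shared by both groups. The 2 wild-type libraries were from mice with Lsd1+/+ alleles. The 2 libraries titled knockout were, per the series' design text, from mice with conditional Lsd1L/L alleles, although their tissue label also reads Lsd1+/+. The labels do not say whether libraries came from separate animals or from pools, so a p-value here covers the spread among 4 libraries, which may be technical. Ages are not given.

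Bcl2 family proteins decide at the mitochondrial outer membrane whether a cell enters apoptosis. Pro-survival proteins hold in check the effectors, which otherwise form pores that release cytochrome c, and BH3-only proteins are the stress sensors that bind the pro-survival proteins or activate the effectors. In the mammary gland, loss of epithelium after lactation runs through this pathway, and lymphocytes depend on it for their survival and turnover.

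Of the 9 genes tested, 3 passed the threshold, and their promoters are shown because these are the genes on which the comparison turns. Sequences are from RefSeq (GRCm38.p6). None was read for Pmaip1, and those of the other 9 genes cover 14 start sites in all. Each is the 250 bases before a start site, 5′ to 3′ on the gene's strand, with GC boxes (GGGCGG on either strand) in capitals. The intervals are chr1:106714291-106714540 on the minus strand for Bcl2, chr3:95658471-95658720 on the plus strand for Mcl1, and chr2:152831729-152831978 on the minus strand for Bcl2l1, which has 3 start sites in the table. These intervals overlapped no GENCODE exon; the Bcl2l1 interval was the only one of its 3 of which this holds.
Bcl2: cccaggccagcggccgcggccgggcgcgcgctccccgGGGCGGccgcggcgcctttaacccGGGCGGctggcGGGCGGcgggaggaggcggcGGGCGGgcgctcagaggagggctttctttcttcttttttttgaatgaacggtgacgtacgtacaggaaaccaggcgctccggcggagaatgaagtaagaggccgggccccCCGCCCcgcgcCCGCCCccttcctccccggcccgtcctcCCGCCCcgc
Mcl1: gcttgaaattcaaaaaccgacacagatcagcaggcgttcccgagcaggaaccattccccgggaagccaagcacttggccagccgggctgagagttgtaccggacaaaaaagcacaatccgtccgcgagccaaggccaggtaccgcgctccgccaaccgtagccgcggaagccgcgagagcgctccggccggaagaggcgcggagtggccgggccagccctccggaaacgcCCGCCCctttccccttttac
Bcl2l1: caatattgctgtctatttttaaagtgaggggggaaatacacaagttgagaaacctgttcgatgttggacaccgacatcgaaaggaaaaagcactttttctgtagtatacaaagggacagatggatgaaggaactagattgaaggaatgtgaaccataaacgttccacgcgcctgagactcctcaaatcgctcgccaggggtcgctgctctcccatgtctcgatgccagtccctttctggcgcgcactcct
The Bcl2 window held 7 GC boxes, the Mcl1 window 1 and the Bcl2l1 window 0. Across these 9 genes 10 of 14 windows held at least 1 GC box, against 32.7% of 32851 promoter windows of the same length. The 14 windows are not independent, since some genes have several and windows of Bbc3 overlap. By gene, 7 of the 9 had a window with a GC box. The STAT motif TTCNNNGAA was in 0 of the 14 windows and in 7.02% of all windows. A match or its lack describes these letters only.

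Levels are in FPKM (fragment counts divided by transcript length and library size), so they can be set side by side between genes. The FPKM values summed to between 401786 and 449838 per library. No read totals are given, and steps among the lowest values put the depth of the libraries at 0.85 to 1.03 times that of the second KO-labelled library. This estimate is rough, since only 47.3% to 61.4% of the low genes compared lay at the ratios of whole numbers it assumes. Kdm1a, which encodes LSD1, measured 52.5 and 22.9 FPKM in the wild-type pair, against 20.2 and 22.8 FPKM in the libraries titled knockout (difference -0.67 in log2(FPKM + 1), SE 0.46; limma, adjusted p = 0.34). Without wild-type 1 the difference was -0.087. Kdm1a therefore does not settle the label, and these are called the KO-labelled libraries. Xist, the RNA that silences an X chromosome in female cells, was at 3.31 and 3.93 FPKM in wild-type but at 0 and 0.00965 FPKM in the KO-labelled libraries, which goes against their female label; the Y-linked genes Ddx3y, Eif2s3y, Kdm5d and Uty were listed at 0 in all 4 libraries. A difference between the groups in the source of the cells cannot be told apart from the genotype in any result that follows. The 2 wild-type libraries were less alike than the other pair (Pearson correlation across genes 0.85 against 0.98). Krt8, whose promoter drove Cre, measured 4653 and 929 FPKM in the wild-type pair, against 255 and 259 FPKM in the KO-labelled libraries, and markers of other cells moved with the groups. In the limma fit described below, 9.51% of all tested genes rose past the adjusted p threshold of 0.05 and 6.99% fell. T cell markers rose past it for 9 of 10 genes, B cell markers for 7 of 8 and NK cell markers for 6 of 6. Their summed levels were 14.2 and 54.0 FPKM in wild-type against 1439 and 1361 FPKM for T cells, 5.999 and 24.0 against 614 and 590 FPKM for B cells, and 0.523 and 3.67 against 87.9 and 86.6 FPKM for NK cells. Pax5 and Ncr1, defining B and NK cell genes, had values of 0 in wild-type 1 and 2; Trat1, Prf1, Gzma and Klre1 were listed at 0 in wild-type 1. The 9 luminal epithelial markers summed to 12741 and 2810 FPKM in wild-type against 756 and 776 FPKM, with all 9 lower and 1 past the threshold. Macrophage markers, with 0 of 8 tested genes past the threshold and none listed at 0, summed to 168 FPKM in the first wild-type library, 4547 FPKM in the second, and 222 and 211 FPKM in the KO-labelled pair. Neutrophil markers rose for 3 of 8 genes, summing to 573 and 627 against 1166 and 1245 FPKM, with Mmp8 listed at 0 in the first wild-type library. Of these 8 genes 7 were higher and 1, Ltf, was lower, at 313 and 76.4 against 42.3 and 37.3 FPKM. The part of these cell types in the results that follow was not tested, and fewer cells of a type cannot be told apart from less RNA per cell.

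Bcl2 and Mcl1 rose and Bcl2l1 fell in the KO-labelled pair, whereas Bcl2a1b spread too widely between the wild-type libraries for a direction. In all, 2 of the 9 tested genes rose, against 9.51% of all 11138 tested genes, and 1 fell, against 6.99% (limma on log2(FPKM + 1), Benjamini-Hochberg threshold of 0.05, 16.5% called in either direction). The tested genes were at 1 FPKM or more in all 4 libraries, and Bak1, the tenth, did not pass the filter on low values. The median difference of the 9 was 0.72 on the log2(FPKM + 1) scale, beside 0.08 for all tested genes. The levels by library show the wild-type points apart for Bcl2a1b and the pairs close together for Mcl1 and Bcl2l1.

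**Figure D1:**
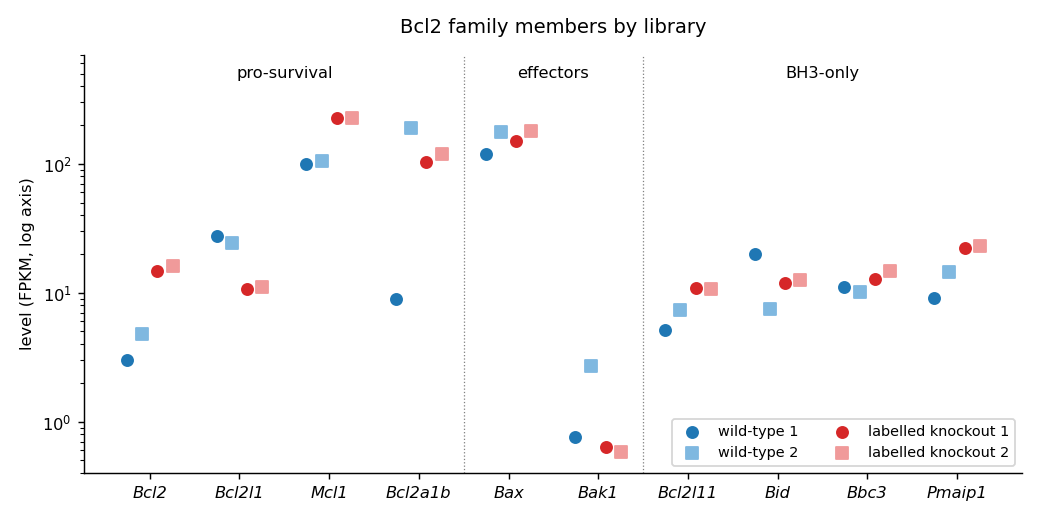
Level of each of the 10 genes (FPKM, log axis) in the 2 wild-type libraries (blue) and the 2 KO-labelled libraries (red), grouped by role; each point is 1 library. Both red points lie above both blue points for Bcl2 and Mcl1 and below them for Bcl2l1, and the blue points of Bcl2a1b lie at 8.92 and 191 FPKM.

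Bcl2, the founding pro-survival gene, was at 3.00 and 4.77 FPKM in the wild-type pair, against 14.6 and 16.2 FPKM in the KO-labelled pair. Both KO-labelled libraries were above both wild-type libraries, and the gap exceeded the distance within either pair. The means were 3.89 ± 1.25 and 15.4 ± 1.11 FPKM (SD, n = 2 each), a ratio of 3.97, and the difference in log2(FPKM + 1) was 1.77 (SE 0.28; limma, adjusted p = 0.036). In the wild-type libraries Bcl2 was the lowest of the family apart from Bak1, and in the KO-labelled pair it was above Bcl2l1, Bcl2l11, Bid, Bbc3 and Bak1. The T, B and NK cell marker lists were higher in the same libraries.

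Mcl1 encodes a short-lived pro-survival protein that binds the BH3-only proteins BIM and NOXA. It measured 99.4 and 105 FPKM in wild-type 1 and 2, against 228 and 227 FPKM in the KO-labelled pair. The 2 values of each group lay close together, and the groups did not overlap. Its means were 102 ± 3.97 and 228 ± 0.520 FPKM (SD, n = 2 each), a ratio of 2.23, with a difference of 1.15 on the log2 scale (SE 0.15; limma, adjusted p = 0.030). The wild-type libraries, with 99.4 and 105 FPKM of Mcl1, had luminal marker sums of 12741 and 2810 FPKM, and the T, B and NK cell lists were higher in the KO-labelled pair.

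Bcl2l1, which encodes BCL-XL, the pro-survival protein long associated with mammary epithelium, moved the other way. It measured 27.6 and 24.1 FPKM in the wild-type libraries, against 10.6 and 11.1 FPKM in the KO-labelled pair. Both KO-labelled libraries were below both wild-type libraries. The means of 25.8 ± 2.42 and 10.9 ± 0.322 FPKM (SD, n = 2 each) gave a 2.38-fold lower level, and the log2 difference was -1.18 (SE 0.19; limma, adjusted p = 0.037). The luminal epithelial list was lower in the same libraries. Its sums were 12741 and 2810 FPKM in the wild-type pair, where Bcl2l1 was at 27.6 and 24.1 FPKM, and a link was not tested. The call ended after scaling the libraries to 1 common sum (adjusted p = 0.053).

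Bcl2a1b is 1 of the mouse gene copies that encode A1, a pro-survival protein of leukocytes. It was at 8.92 FPKM in the first wild-type library, 191 FPKM in the second, and 103 and 118 FPKM in the KO-labelled pair. The wild-type values lay on either side of the other pair. The log2 difference was 1.36 (95% interval -2.97 to 5.69; limma, adjusted p = 0.55), moving to -0.78 when the first wild-type library was left out and to 3.49 when the second was. Wild-type 2, with the highest Bcl2a1b, also had the highest macrophage marker sum (4547 FPKM). For wild-type 1 and labelled knockout 1 and 2 these sums were 168, 222 and 211 FPKM. Their Bcl2a1b levels lay much further apart, at 8.92, 103 and 118 FPKM. A link was not tested.

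The A1 copies were followed together because their sequences are close to identical. In GENCODE M21 the Bcl2a1b transcript matched Bcl2a1d at 99.1%, Bcl2a1a at 98.2% and Bcl2a1c at 95.5% of aligned bases, and 57.6% of its words of 50 bases and 31.1% of those of 100 bases also occurred in another copy. The values of single copies are therefore uncertain, since reads can be split between them. Bcl2a1a was at 3.18, 72.2, 33.8 and 36.8 FPKM and Bcl2a1d at 4.11, 91.0, 53.8 and 60.9 FPKM, in the order of wild-type 1 and 2 and labelled knockout 1 and 2. Both showed the same order of libraries as Bcl2a1b. Bcl2a1c, at 0.239, 4.07, 3.20 and 1.57 FPKM, shared the lowest and the highest library but had the KO-labelled libraries in the opposite order. Across the libraries the ratio of Bcl2a1b to Bcl2a1d was between 1.92 and 2.17. The sum of the 4 copies was 16.4 and 358 FPKM in the wild-type pair against 194 and 217 FPKM in the KO-labelled pair.

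**Figure D2:**
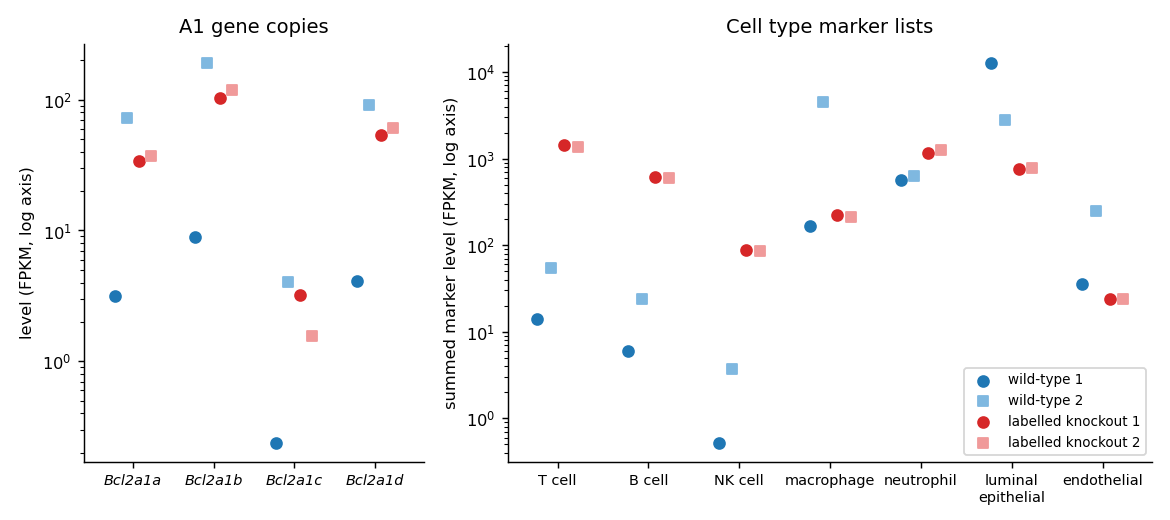
Left, level of the 4 A1 gene copies by library; right, summed level of each cell type marker list by library (FPKM, log axes; each point is 1 library, blue wild-type, red labelled knockout). The second wild-type library is highest for all 4 copies and for macrophage markers (4547 FPKM). Macrophage sums elsewhere are 168 FPKM (wild-type 1) and 222 and 211 FPKM (labelled knockout). The first wild-type library is lowest for all 4 copies and highest for luminal markers (12741 FPKM).

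Neither effector gave a call. Bax, which forms pores in the mitochondrial membrane once activated, measured 119 and 176 FPKM in the wild-type libraries, against 150 and 178 FPKM in the KO-labelled pair. The 2 ranges overlapped, and the difference was 0.18 (95% interval -0.56 to 0.91; limma, adjusted p = 0.65). Leaving out the first wild-type library gave -0.10 and leaving out the second gave 0.46. Bak1, the other effector, was the lowest of the family in every library, at 0.757 and 2.72 FPKM in the wild-type pair, against 0.640 and 0.583 FPKM in the KO-labelled pair. It reached 1 FPKM in 1 library, the second wild-type, and was not tested. In GENCODE M21 Bak1 shares 614 exon bases with Ggnbp1 on the opposite strand, as Bcl2 does 558 bases with the RIKEN gene model D630008O14Rik. On the same strand Bcl2a1b shares 401 exon bases with Gm29094 and Bax 192 with Gm45808. Reads in such stretches may not be assignable to 1 gene. For genes on opposite strands this holds if the counting ignored strand, and the gene models used for the counting are not given. Of these partners Ggnbp1 has a row in the expression table, whereas D630008O14Rik, Gm29094 and Gm45808 have none. The ratio of Bax to Bak1 was 157 and 64.7 in the wild-type pair against 235 and 306 in the KO-labelled pair.

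None of the 4 BH3-only genes passed, although 3 of them did not overlap between the groups. Over all tested genes 39.3% did not overlap with the KO-labelled libraries above, and 32.1% with them below; among the 9 tested family genes the counts were 5 and 1. Pmaip1, which encodes NOXA, a partner of MCL1, measured 9.04 and 14.4 FPKM in the wild-type libraries, against 22.2 and 23.1 FPKM in the KO-labelled pair. Its values rank the libraries in the same order as those of Bcl2. The difference of 0.93 (SE 0.29; limma, adjusted p = 0.099) did not pass.

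Bcl2l11 encodes BIM, which binds all pro-survival proteins and is central to lymphocyte deletion. It measured 5.15 and 7.33 FPKM in the wild-type libraries, against 10.9 and 10.7 FPKM in the KO-labelled pair. The difference was 0.72 (SE 0.25; limma, adjusted p = 0.12), with no overlap between the pairs. Bbc3, which encodes PUMA, a p53 target, measured 11.01 and 10.04 FPKM in the wild-type libraries, against 12.9 and 14.7 FPKM in the KO-labelled pair. This was the smallest of the differences without overlap among the tested genes of the family, at 0.36 (95% interval -0.22 to 0.93; limma, adjusted p = 0.27).

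Bid links death receptors to mitochondria after cleavage by caspase-8. It measured 20.0 and 7.44 FPKM in the wild-type libraries, against 11.99 and 12.6 FPKM in the KO-labelled pair. The wild-type values again lay on either side of the other pair, here with the first library higher. The difference was -0.00096 (95% interval -1.43 to 1.42; limma, adjusted p = 0.999), moving to 0.66 when the first wild-type library was left out and to -0.66 when the second was. Bid shares 628 exon bases on the opposite strand with Bcl2l13 in GENCODE M21. The counting is not stated to use strand, and if it did not, reads there cannot be assigned to 1 gene.

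**Figure D3:**
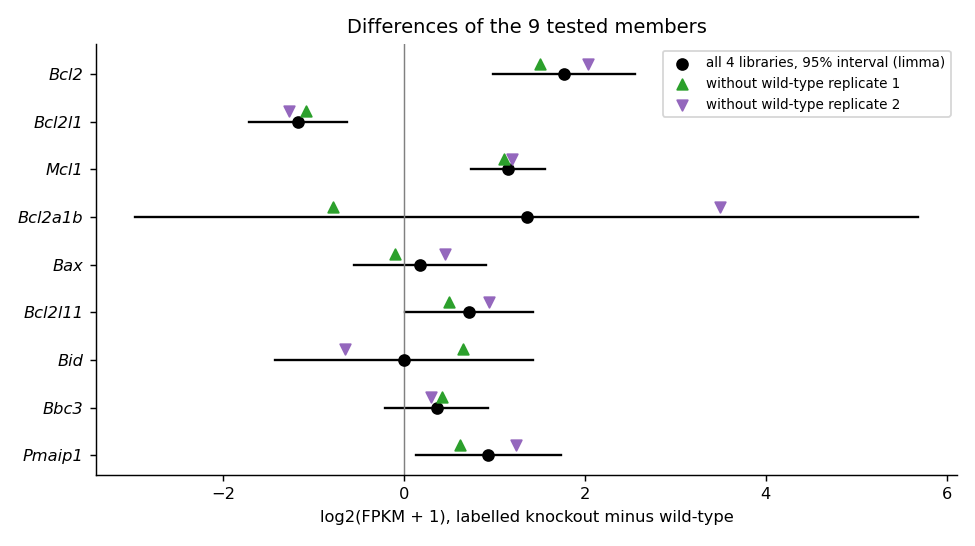
Difference in log2(FPKM + 1), labelled knockout minus wild-type, for the 9 tested genes; black points with bars are the fit to all 4 libraries with 95% intervals (limma), and triangles the fits without 1 wild-type library. The triangles of Bcl2, Bcl2l1 and Mcl1 stay within the bars and on 1 side of 0, and those of Bcl2a1b (-0.78 and 3.49), Bax (-0.10 and 0.46) and Bid (0.66 and -0.66) fall on both sides.

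The 3 calls ended without either KO-labelled library. In those fits 0 of the 9 genes passed, against 0.00% of all genes (limma; 2 of the 9 at an unadjusted p under 0.05 in each case, Bcl2 and Mcl1, and 1385 and 1346 of all genes), and 8 of 9 passed when the fit lacked wild-type 1, against 69.3% of all genes, and 8 of 9 when it lacked wild-type 2, against 71.0%; the lone wild-type library is then assumed to vary like the other pair. An exact permutation test on 2 against 2 libraries cannot go below p = 0.33.

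Ratios between genes within a library do not depend on the scaling of that library, and they show how the make-up of the pro-survival set differed. The ratio of Bcl2 to Bcl2l1 was 0.109 and 0.198 in the wild-type pair against 1.38 and 1.46 in the KO-labelled pair, so that the order of these genes was opposite in the 2 groups. The ratio of Mcl1 to Bcl2l1 was 3.61 and 4.35 in the wild-type pair against 21.5 and 20.5 in the KO-labelled pair. Neither ratio overlapped between the groups. This follows from the levels, since Bcl2 and Mcl1 were higher and Bcl2l1 lower without overlap, and is no separate result. As a share of the summed FPKM of the 4 pro-survival genes, Bcl2l1 made up 19.8% and 7.44% in the wild-type pair against 2.98% and 2.97% in the KO-labelled pair. Mcl1 made up 71.6% and 32.4% in the wild-type pair against 64.0% and 61.0% in the other pair. The low value was in wild-type 2, where Bcl2a1b made up 58.7%. Of the A1 copies this sum holds only Bcl2a1b, whose single value is uncertain, so all these shares depend on that choice.

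Set against their BH3-only partners, pro-survival genes differed from each other. Bcl2 was below Bcl2l11 in wild-type, with ratios of 0.584 and 0.651, and above it in the KO-labelled pair, with ratios of 1.35 and 1.52. Bcl2l1 exceeded Bcl2l11 in wild-type, with ratios of 5.35 and 3.29, and was level with it in the KO-labelled pair, at 0.978 and 1.04. The ratio of Mcl1 to Pmaip1 was 11.001 and 7.31 in the wild-type pair against 10.3 and 9.84 in the KO-labelled pair, so the groups overlapped for this pair. The ratio of Bax to Mcl1 was 1.20 and 1.67 in the wild-type pair against 0.658 and 0.784 in the KO-labelled pair. These ratios are descriptions of the same 4 libraries and were not tested.

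**Figure D4:**
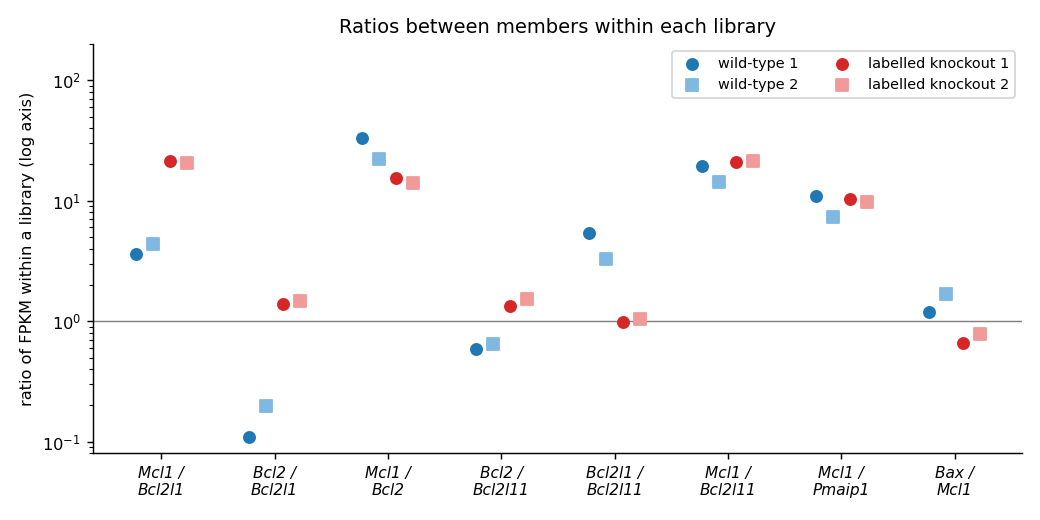
Ratio of the FPKM of 2 genes within each library (log axis; grey line at 1), each point 1 library, blue wild-type and red labelled knockout. Bcl2 to Bcl2l1 lies at 0.109 and 0.198 in wild-type and at 1.38 and 1.46 in the KO-labelled pair, on either side of the line, while Mcl1 to Pmaip1 overlaps between the groups.

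The genes whose profiles over the 4 libraries were nearest to each called gene, by Euclidean distance between centred log2(FPKM + 1) values among 6520 genes, were Gtpbp1, Inpp1 and Gem for Bcl2 (distances 0.067 to 0.079), Dynlt1c, Pfdn1 and Ehd4 for Bcl2l1 (0.038 to 0.085), and Spsb3, Rpl13 and Eed for Mcl1 (0.015 to 0.041). Gtpbp1 measured 3.22 and 4.81 FPKM in the wild-type libraries, against 15.6 and 16.5 FPKM in the KO-labelled pair, close to the values of Bcl2. With 4 libraries many genes can share a profile.

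Among the other Bcl2 family genes 1 of 12 tested fell, near the 6.99% of all tested genes, 0 rose, against 9.51%, and 11 did not pass. Their median difference was 0.21, beside 0.08 for all tested genes, with 7 higher and 5 lower. Those higher include the A1 copies Bcl2a1a, Bcl2a1c and Bcl2a1d (1.05, 0.39 and 1.43), whose single values are uncertain, so this median is too. Bik, the BH3-only Bcl2-interacting killer, fell from 26.5 and 19.8 FPKM to 5.16 and 4.87 FPKM (-1.99, SE 0.24; limma, adjusted p = 0.029). Bad, a BH3-only gene whose protein is inactivated by survival kinases, measured 16.8 and 27.5 FPKM in the wild-type libraries, against 7.28 and 8.18 FPKM in the KO-labelled pair (adjusted p = 0.060). Bok, an effector-like gene, measured 3.30 and 24.1 against 1.77 and 0.569 FPKM (adjusted p = 0.17). It was highest in wild-type 2, the library with the highest macrophage (4547 FPKM), fibroblast (624 FPKM) and endothelial (251 FPKM) marker sums. Bnip3l, a mitophagy receptor, measured 21.3 and 30.1 against 48.0 and 44.3 FPKM (adjusted p = 0.092). Bcl2l10 and Hrk were listed at 0 in all 4 libraries.

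Downstream of the mitochondria, 3 of 15 tested genes of the apoptosome, caspases and their inhibitors rose, against 9.51% of all tested genes, with a median difference of 0.06 beside 0.08. Birc2, which encodes the inhibitor of apoptosis cIAP1, rose from 3.87 and 5.16 FPKM to 17.0 and 16.4 FPKM (1.69, SE 0.23; limma, adjusted p = 0.032). Casp2, an initiator caspase, went from 3.48 and 2.94 to 11.4 and 10.3 FPKM (adjusted p = 0.034), and Dffb, the nuclease that cuts DNA in apoptosis, from 2.21 and 2.00 to 6.64 and 8.86 FPKM (adjusted p = 0.038).

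In the death receptor pathway 2 of 9 tested genes rose, against 9.51% of all tested genes, and 1 fell, against 6.99%, with a median difference of 0.64 beside 0.08. Fas, the receptor, rose from 18.3 and 15.6 FPKM to 56.4 and 55.8 FPKM (1.67, SE 0.19; limma, adjusted p = 0.027). Its ligand Fasl, a product of T and NK cells, rose from 0.135 and 2.00 FPKM to 24.7 and 27.3 FPKM (adjusted p = 0.033), and this call ended with a pseudocount of 0.1 (difference 5.21 against 3.87 in log2; adjusted p = 0.064). The TNF receptor gene Tnfrsf1a fell from 43.6 and 55.5 FPKM to 16.6 and 15.8 FPKM (adjusted p = 0.032). Ripk1, a kinase of the same receptor complex, measured 8.19 and 9.68 against 14.4 and 15.7 FPKM (adjusted p = 0.095). The T and NK cell marker lists were higher in the libraries where Fas and Fasl rose.

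Of 11 tested genes in the list of p53 and its targets, 1 rose, near the 9.51% of all tested genes, 0 fell, against 6.99%, and 10 did not pass, with a median difference of -0.32 beside 0.08. The gene that rose was Trp53 itself, from 28.5 and 22.9 FPKM to 65.3 and 56.6 FPKM (1.22, SE 0.21; limma, adjusted p = 0.041), a call that ended after median centring (adjusted p = 0.053). Its targets lay on both sides. Sesn1 measured 3.40 and 10.6 against 35.9 and 33.95 FPKM (adjusted p = 0.061) and Trp53inp1 measured 3.46 and 2.17 against 7.10 and 7.32 FPKM (adjusted p = 0.065), while Phlda3, a repressor of Akt, measured 28.2 and 9.91 against 3.15 and 4.09 FPKM (adjusted p = 0.087).

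Of 9 regulators and partners of the family 1 rose, near the 9.51% of all tested genes, 0 fell, against 6.99%, and 8 did not pass, with a median difference of -0.16 beside 0.08. Foxo1, a transcription factor that can activate Bcl2l11, rose from 5.44 and 4.01 FPKM to 20.2 and 17.3 FPKM (1.79, SE 0.25; limma, adjusted p = 0.032). Vdac2, a mitochondrial channel that binds BAK, measured 105 and 101 against 70.9 and 69.4 FPKM (adjusted p = 0.087), Tmbim6, Bax inhibitor-1, measured 56.4 and 44.4 against 30.6 and 23.1 FPKM (adjusted p = 0.086), and the stress factor Ddit3 measured 19.6 and 28.7 against 38.2 and 38.8 FPKM (adjusted p = 0.14). None of the calls named in these 5 lists held without either KO-labelled library.

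**Figure D5:**
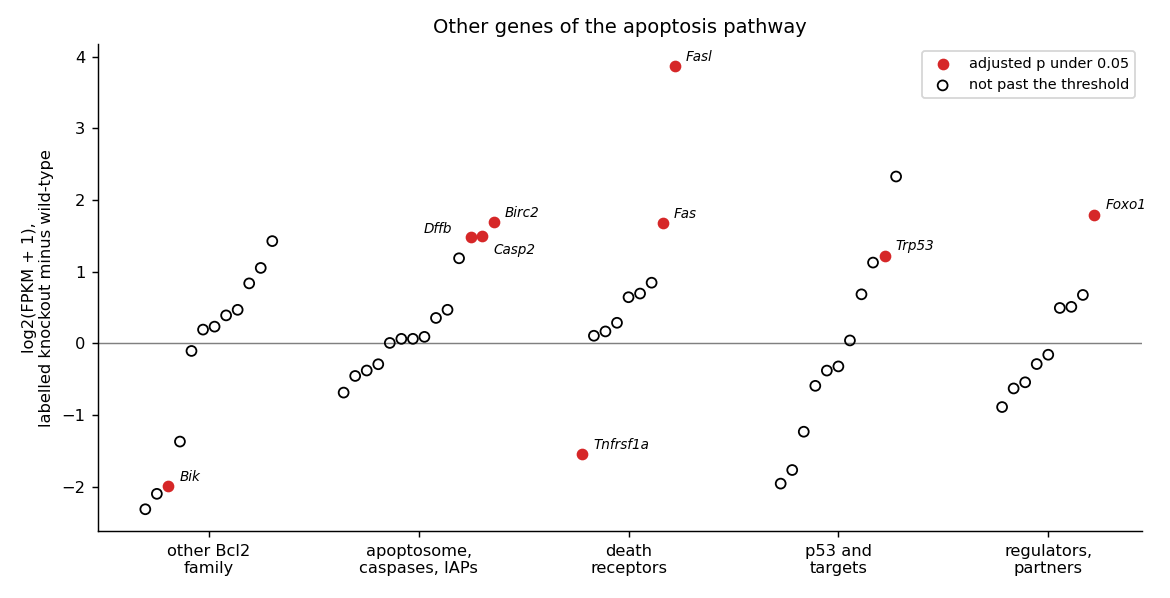
Difference in log2(FPKM + 1), labelled knockout minus wild-type, for the tested genes of 5 apoptosis gene lists (1 gene is not shown), sorted within each list; filled points passed the adjusted p threshold of 0.05 (limma) and are named. Points lie on both sides of 0 in each list, and Fasl is highest at 3.87.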

How the data were processed

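RNA-seq libraries of YFP+ tumor cells were made with a low-input SMARTer kit, per the labels' protocols. The deposited table gives 1 FPKM value per gene and library, computed by the authors; the unit was read from the values, since the header names none. Per the submitters' processing notes the build was mm9. The aligner, the counting tool and the gene models: not given in the sources used here. Groups were taken from sample titles.

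The 92 spike-in rows were left out. The 11138 genes that reached 1 FPKM in 2 or more libraries entered 1 limma fit (version 3.58.1, R 4.3.3) of log2(FPKM + 1) on genotype, using limma's trend and robust options; p-values were adjusted by Benjamini-Hochberg over all of them, with a threshold of 0.05. This scale understates changes of low genes. The fit was also tested on simulated data. A gene that did not pass is not shown to be unchanged. Of 140 list symbols, 1 (Fcmr) was matched through an older name. Named are the 10 family genes, Kdm1a, in each pathway list the 4 genes with the smallest p whose mean reached 1 FPKM, and for each called gene the 3 nearest profiles among genes whose mean reached 5 FPKM. The values of 1 gene that this rule names are not reported here. The genes and lists were chosen with earlier results of these data known. Promoters and transcripts are of another build than the table and were not joined to its coordinates. There were 13 alternative settings.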

Additional observations from a re-analysis of the deposited data

How the results depend on the processing

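Bcl2, Bcl2l1 and Mcl1 kept their direction in all 13 alternative settings run. Their calls ended with no filter on low values (1.77, -1.18 and 1.15; limma, adjusted p = 0.15, 0.15 and 0.14), where 1 gene in all passed, and that of Bcl2l1 also on a common total (-1.10). Leaving out 1 library at a time gave 1.51 to 2.03 for Bcl2, -1.27 to -1.08 for Bcl2l1, 1.11 to 1.19 for Mcl1, 0.50 to 0.94 for Bcl2l11, -0.78 to 3.49 for Bcl2a1b, -0.10 to 0.46 for Bax, -0.66 to 0.66 for Bid, 0.27 to 0.45 for Bbc3 and 0.62 to 1.24 for Pmaip1. Bid, at -0.00096, was 0.011 and 0.0052 with pseudocounts of 0.1 and 0.5 and 0.070 on a common total. The cause was not tested. No pathway gene that the naming rule gave, nor Kdm1a, changed direction in these settings, which for them were chosen after seeing the data.

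Leaving out 1 library moved the number of genes past the threshold between 0 and 7912, of the family between 0 and 8, of the other Bcl2 genes between 0 and 10, of the apoptosome list between 0 and 10, of the death receptors between 0 and 7, of the p53 list between 0 and 10 and of the regulators between 0 and 7. With no filter each of these 5 lists and the family had 0 calls, and the p53 list also had 0 after median centring. The replicate numbers are no pairing by the labels, and deviations of same-numbered libraries had a correlation of -0.06 across genes. With the number as a replicate block 501 of the 11138 tested genes passed, among them 0 of the family. The differences were 1.77 for Bcl2, -1.18 for Bcl2l1 and 1.15 for Mcl1 (limma, adjusted p = 0.059, 0.085 and 0.063). In this fit 1 gene of the death receptor list passed, and 0 of the other 4 lists. Low values limit Bak1, at 0.583 to 2.72 FPKM: with no filter its difference was -0.67 (limma, adjusted p = 0.63).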
